A study of Mus musculus with 10 samples.

Results

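The respiratory chain genes examined here are the protein-coding rows of the count table whose symbols begin with mt-, with Ndufa, Ndufb, Ndufc, Ndufs or Ndufv and a digit, with Uqcr, with Cox4 to Cox8 or with Atp5, together with Sdha, Sdhb, Sdhc and Sdhd. The rule took 95 of the 17864 genes in the table, and no measured value entered it. Of these, 13 lie on the mitochondrial genome and 82 on nuclear chromosomes. The nuclear members make up 37 genes of complex I, 4 of complex II, 8 of complex III, 16 of complex IV and 17 of complex V, while the mitochondrial genome holds 7 genes of complex I, 1 of complex III, 3 of complex IV and 2 of complex V. Cox7b2 and Cox8c, which the rule also names, have no row in the table used here.

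The RNA came from mammary tumors of 4T1 cells, a mouse triple-negative breast carcinoma line, and the study asked how loss of TAZ changes these tumors. Cells of both groups carried Cas9. The 5 sgCon tumors came from cells with a control guide RNA and the 5 sgTaz tumors from cells with a guide RNA that targets Wwtr1, which encodes TAZ, and the methods give 100000 injected cells and female SCID or BALB/c mice of 6 to 8 weeks, without stating which strain carried the sequenced tumors or that the edited cells were a single clone. The labels do not say that each tumor grew in its own mouse, so that p-values measure the spread between these samples. Although the labels call the cell type a tumor cell, whole tumors were sequenced, and RNA of host cells was counted with that of the 4T1 cells. Epithelial keratin and junction genes, the markers of 4T1 cells, summed to between 2266 and 5340 CPM (counts scaled to a common library total, after TMM normalization) in sgCon tumors and to between 1681 and 4182 CPM in sgTaz tumors, and markers of macrophages, fibroblasts and endothelium were present in every tumor. In such bulk samples, fewer cells of a type and less RNA per cell cannot be told apart. The study describes SCID mice as without functional adaptive immunity. T cell markers summed to between 143 and 934 CPM in sgCon tumors and to between 108 and 282 CPM in sgTaz tumors. B cell markers summed to between 72.9 and 988 CPM in sgCon tumors and to between 7.56 and 230.3 CPM in sgTaz tumors. A median of 17155103 reads was counted per sgCon tumor (14753922 to 19595821) and of 15566873 per sgTaz tumor (12185383 to 18395558).

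Wwtr1 itself was at 192, 181, 115, 171 and 156 CPM in the sgCon tumors and at 86.6, 104, 109.9, 139 and 102 CPM in the sgTaz tumors. The groups overlapped in that sgTaz tumor 4 stood above sgCon tumor 3. The log2 fold change was -0.59 (standard error, SE, 0.15), with an adjusted p of 0.096 by edgeR's quasi-likelihood test with Benjamini-Hochberg adjustment over 14816 genes. A guide RNA changes DNA and need not lower the RNA of its target, so that this level is a limited check of the labels.

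Complexes I to IV pass electrons from NADH and succinate to oxygen, and complexes I, III and IV pump protons across the inner mitochondrial membrane as they do so. Complex V, the ATP synthase, lets the protons flow back and makes ATP. Complexes I, III, IV and V are built from subunits of both genomes. The mitochondrial genes are transcribed as long precursors from the circular mitochondrial DNA, which has many copies in a cell, while each nuclear subunit has its own promoter and is imported as a protein.

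Reads of several mitochondrial genes also match copies of mitochondrial DNA in the nuclear genome. The first 60 bases of mt-Co2, the gene of the copper-binding subunit 2 of complex IV, and of Gm28661, a pseudogene on chromosome 1, are shown in the sense direction because reads from one cannot be placed in the other by sequence, and the same holds for mt-Atp6, the gene of the proton channel subunit of complex V, and Gm10925. No letter is in capitals, since no base differed.
mt-Co2: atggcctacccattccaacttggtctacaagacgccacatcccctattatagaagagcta
Gm28661: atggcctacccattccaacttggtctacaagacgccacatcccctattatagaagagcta
mt-Atp6: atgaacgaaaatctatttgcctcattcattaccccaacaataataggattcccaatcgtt
Gm10925: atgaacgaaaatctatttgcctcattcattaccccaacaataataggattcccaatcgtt

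Over their whole aligned lengths, mt-Co2 and Gm28661 were identical over 681 bases, mt-Atp6 and Gm10925 over 678 bases, and mt-Co3 and Gm28437 over 783 bases (GENCODE M21 transcripts, GRCm38). mt-Nd4l and Gm10222 were identical over 294 bases, and mt-Nd3 and Gm28438 were 99.71% identical over 345 bases. The pseudogenes lie in order on chromosome 1 between 24611535 and 24616197, a stretch that also holds Gm28439, identical to 876 bases of mt-Nd4, and Gm29216, 99.79% identical to 483 bases of mt-Co1. In all, 7 of the 13 mitochondrial members had a copy with at least 97% identity over at least 100 bases. Among the nuclear members, 16 of 82 had such a copy elsewhere, mostly processed pseudogenes, and their levels are uncertain to that extent.

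Nuclear respiratory genes are known targets of NRF1, of ETS factors such as GABPA, and of YY1. In RefSeq promoters of GRCm38.p6, from 250 bases before to 50 bases after each start, 67 of the nuclear members were matched, with 72 promoters. The NRF1 letters GCGCATGC, read on both strands, were in 10 of these promoters (13.889%), against 2.712% of all 32851 promoters. The YY1 letters AAGATGGCG were in 7 (9.722%, against 1.403%), and the ETS letters CCGGAAGT in 5 (6.944%, against 3.887%). At least 1 of these motifs, which did not share letters in the promoters shown, was in 21 of the 72 promoters (29.167%, against 7.568%). Shown with the match in capitals are the 100 bases before the start of Uqcrh, the nuclear member with the most negative log2 fold change in complex III (chr4:116075071-116075170, minus strand, ETS letters), and of Ndufa11, a complex I gene that is also among the lower ones (chr17:56717662-56717761, plus strand, NRF1 letters, which overlap themselves on the other strand). A match is a description of the letters and not a bound site.
Uqcrh: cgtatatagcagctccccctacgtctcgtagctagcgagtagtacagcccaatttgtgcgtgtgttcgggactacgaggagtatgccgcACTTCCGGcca
Ndufa11: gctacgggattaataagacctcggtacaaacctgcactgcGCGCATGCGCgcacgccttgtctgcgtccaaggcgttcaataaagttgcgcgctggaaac

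The mitochondrial members took a few percent of all counts, most of it on 3 genes. mt-Co1, the catalytic subunit of complex IV, gave a median of 43.0% of the mitochondrial counts over the 10 tumors. mt-Cytb, the cytochrome b of complex III, gave 22.3%, and mt-Nd1, a membrane subunit of complex I, gave 13.3%. Per kilobase of exon, mt-Co1 stood at 7159 CPM, mt-Cytb at 4929 CPM and mt-Nd1 at 3596 CPM, means over the 10 tumors. mt-Nd2 (2015 CPM per kilobase), mt-Nd4 (1561) and mt-Nd5 (776), further membrane subunits of complex I, followed, and mt-Nd6, the one member on the light strand, was at 158 CPM per kilobase.

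The other 6 mitochondrial members were counted at far lower levels, although all but mt-Nd6 are cut from the same precursor. mt-Co2, mt-Co3 and mt-Atp6 were at 25.9, 26.6 and 25.1 CPM per kilobase, mt-Nd3 at 6.99, mt-Nd4l at 4.45 and mt-Atp8 at 2.55. The identical pseudogenes of mt-Co2 and mt-Atp6 were counted about as often as the genes in most tumors, and that of mt-Co3 more often than its gene in every tumor. In sgCon tumor 1, for example, mt-Co2 had 226 counts and Gm28661 233, mt-Atp6 had 221 and Gm10925 225, and mt-Co3 had 260 and Gm28437 393. How far these low counts measure the RNA of the genes was not tested, and what the counting did with reads that fit several places is not stated in the sources used here.

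**Figure D1:**
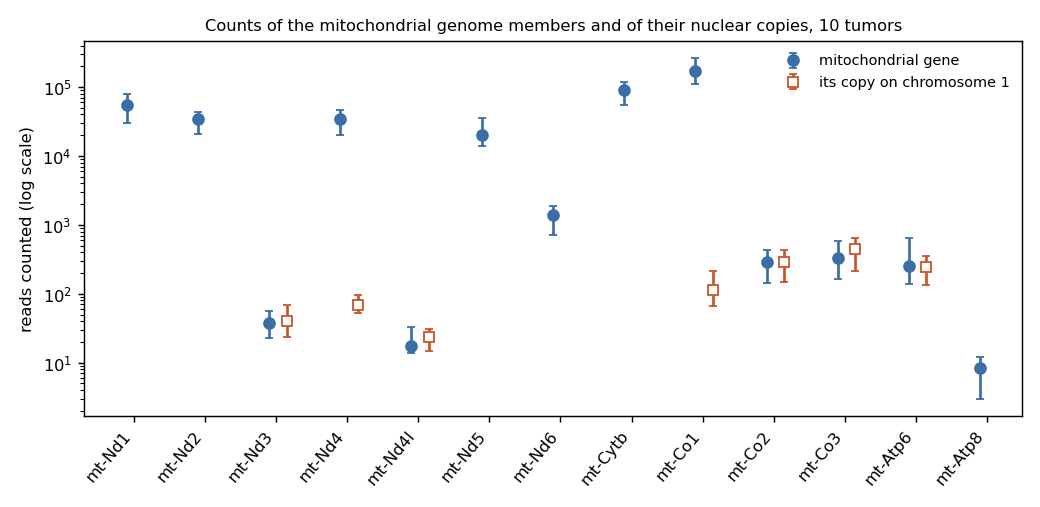
Reads counted (log scale) for each of the 13 mitochondrial members (filled circles) and for its copy on chromosome 1 where the table holds one (open squares), as the median and the range over the 10 tumors. mt-Co2, mt-Co3, mt-Atp6, mt-Nd3 and mt-Nd4l sit beside their copies, while mt-Co1 and mt-Nd4 stand far above theirs.

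Mitochondrial RNA did not separate the groups. The share of counts on the mitochondrial members was 2.13%, 1.96%, 3.52%, 2.18% and 3.08% in the sgCon tumors and 3.12%, 3.37%, 2.22%, 2.06% and 2.25% in the sgTaz tumors. Each group held tumors near 2% and tumors above 3%, sgCon tumors 3 and 5 and sgTaz tumors 1 and 2. The means were 2.57% ± 0.686 (SD, n = 5) and 2.60% ± 0.598 (SD, n = 5), and the difference of 0.0271 percentage points is far smaller than the spread within either group. It was between -0.165 and 0.263 with each tumor left out, and 0.601 without sgCon tumors 3 and 5 and sgTaz tumor 5, beside a spread of 0.643 (pooled SD).

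Of the mitochondrial members, 12 had enough counts to be tested, and mt-Atp8 fell below the filter with between 3 and 12 counts in a tumor. By edgeR's quasi-likelihood test, none had an adjusted p below 0.05, where 1 of all 14816 genes did (0.00675%), and none had an unadjusted p below 0.05, where 9.86% of all genes were higher and 11.9% lower in sgTaz tumors. Their log2 fold changes, 6 positive and 6 negative, had a median of -0.024, beside -0.019 over all genes tested. With each tumor corrected for GC content and exon length, 10 were positive and 2 negative, with a median of 0.10 (-0.032 over all genes). mt-Nd4l was then at 1.37 and mt-Nd3 at 0.82, but that correction left short protein-coding genes above longer ones, as given below. With one that puts little weight on outlying genes, 6 were positive and 6 negative, with a median of -0.00014 (-0.026 over all genes). DESeq2 also called none after adjustment, where it called 3.68% of all genes higher and 3.68% lower. With limma-voom, where 4.63% of all genes were called higher and 5.80% lower, none was called, and mt-Nd4l alone had an unadjusted p below 0.05, as had 14.0% of all genes in that direction.

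mt-Co1 was at 9957, 8618, 16224, 8808 and 14093 CPM in the sgCon tumors and at 11812, 14026, 9262, 8826 and 8988 CPM in the sgTaz tumors. The ranges overlapped almost wholly, and the log2 fold change was -0.12 (SE 0.21, adjusted p = 0.753 by edgeR's quasi-likelihood test). It was 0.039 without sgCon tumor 3 and -0.25 without sgTaz tumor 2. mt-Cytb was at 4604, 4025, 6796, 5053 and 6656 CPM in the sgCon tumors and at 7127, 7763, 4888, 4490 and 4987 CPM in the sgTaz tumors, so that the 2 highest values were sgTaz and the lowest was sgCon. Its log2 fold change was 0.11 (SE 0.20, adjusted p = 0.774), and -0.014 without sgTaz tumor 2. The complex I genes mt-Nd1 (-0.089), mt-Nd2 (0.12), mt-Nd4 (0.075) and mt-Nd6 (-0.057) were as close to 0, each with an SE of 0.20 to 0.29. When single tumors were left out, mt-Nd1, mt-Nd4 and mt-Nd6 changed sign and mt-Nd2 did not.

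mt-Nd5 had the largest positive value among the members without a near-identical copy. It was at 1102, 976, 2210, 896 and 1161 CPM in the sgCon tumors and at 1962, 1799, 1443, 1141 and 1473 CPM in the sgTaz tumors. All sgTaz tumors but tumor 4 stood above the sgCon tumors other than tumor 3, which was the highest of all. The log2 fold change of 0.30 (SE 0.24) had an adjusted p of 0.485 by edgeR's quasi-likelihood test. Among the genes that share reads with a copy, the values ran from -0.62 (SE 0.33) for mt-Atp6 to 0.38 (SE 0.30) for mt-Nd4l, with mt-Co2 at -0.32, mt-Co3 at -0.24 and mt-Nd3 at 0.0097. Without sgCon tumor 3, where mt-Atp6 was at 40.5 CPM against at most 22.0 CPM in any other tumor, mt-Atp6 was at -0.22, mt-Co2 at -0.17, mt-Co3 at -0.067, mt-Nd4l at 0.70 and mt-Nd5 at 0.60, and mt-Co3 was at -0.61 without sgTaz tumor 1. The median was 0.11 over the 5 tested members without such a copy and -0.12 over the 7 with one, but with each tumor left out these ran from -0.014 to 0.21 and from -0.25 to 0.039.

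Tumors within a group differed in the level of the mitochondrial members. Relative to the mean of the 10 tumors, their median log2 CPM was 0.59 and 0.37 in sgCon tumors 3 and 5, 0.42 and 0.43 in sgTaz tumors 1 and 2, and between -0.46 and -0.039 in the other 6. sgCon tumor 3 was the highest of all tumors for 7 of the 12 genes and sgCon tumor 2 the lowest for 6. The markers of lymph node stroma and high endothelium, all 6 tested of them negative with a median log2 fold change of -2.19 and none below an unadjusted p of 0.05, summed to 149.9, 175, 819, 44.7 and 297 CPM in the sgCon tumors and to 2.35, 3.68, 9.96, 14.3 and 398 CPM in the sgTaz tumors. Their most abundant gene, Glycam1, the mucin of high endothelial venules, averaged 107 CPM in sgCon and 47.4 CPM in sgTaz tumors and was at 0 in sgTaz tumors 1, 2 and 3, and none of the 9 markers with a row in the table, of 10 in the list, was absent from all tumors. B cell markers, of which 7 of the 9 tested were lower in sgTaz tumors with an unadjusted p below 0.05, summed to 153, 231, 988, 72.9 and 456 CPM in the sgCon tumors and to 7.89, 7.56, 22.5, 12.3 and 230.3 CPM in the sgTaz tumors. The most abundant was Cd79a, at a mean of 67.0 CPM in sgCon and 7.27 CPM in sgTaz tumors, and none of the 9 with a row, of 10 in the list, was absent from all tumors.

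Without the 3 tumors richest in lymph node stroma markers, sgCon tumors 3 and 5 and sgTaz tumor 5, a choice made after seeing the data, all 12 mitochondrial members tested had positive log2 fold changes, from 0.011 for mt-Atp6 to 0.91 for mt-Nd4l, with a median of 0.33. mt-Nd5 was then at 0.68 (SE 0.18, unadjusted p = 0.00401, adjusted p = 0.168 by edgeR's quasi-likelihood test), mt-Cytb at 0.42 (SE 0.20, adjusted p = 0.426) and mt-Co1 at 0.27 (SE 0.17, adjusted p = 0.537). Still none passed the adjusted threshold, where 0.0399% of all genes were called higher and 0.405% lower in that fit, and the direction over the mitochondrial members thus rested on which tumors were counted. The part of lymph node tissue in the mitochondrial levels was not tested.

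**Figure D2:**
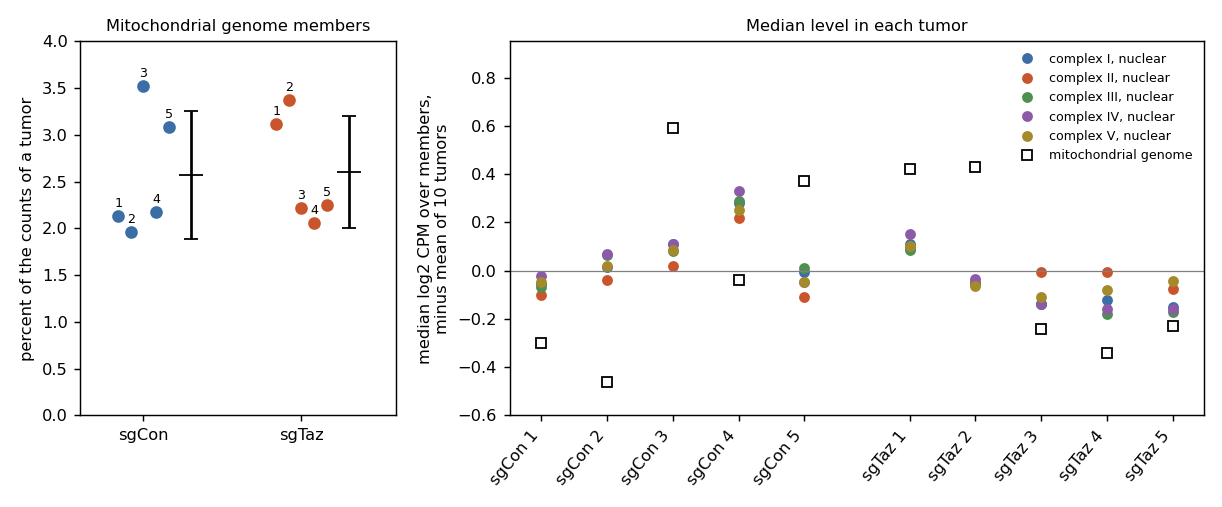
Left, percent of each tumor's counts on the 13 mitochondrial members, with numbered tumors and the mean ± SD of 5 tumors at the side. Right, the median over members of log2 CPM minus the gene's mean over the 10 tumors, for the nuclear members of each complex (filled circles) and the mitochondrial members (open squares), in which the nuclear complexes sit together in each tumor, highest in sgCon tumor 4.

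Most nuclear members had small negative log2 fold changes, and how many were called depended on the tool. Of the 82, 79 were tested, and 65 of these had a negative log2 fold change (82.3%, where 53.0% of all genes were negative). The median was -0.13, beside -0.019 over all genes, with values between -0.48 for Ndufa4l2 and 0.18 for Ndufb2. None passed an adjusted p of 0.05 by edgeR's quasi-likelihood test, where 0.00675% of all genes did. At an unadjusted p below 0.05, 17 were lower (21.5%, where 11.9% of all genes were lower) and none was higher (9.86% of all genes were higher). With DESeq2, the tool named in the methods, Uqcrh and Atp5g2 were called lower at an adjusted p below 0.05, where 3.68% of all genes were. With limma-voom and sample quality weights, Uqcrh, Ndufb7, Cox4i1, Ndufs7, Ndufa6, Atp5g2 and Ndufa2 were called lower, where 5.80% of all genes were. In 3 of the 79 (3.80%), Cox4i1, Atp5g2 and Atp5d, every sgTaz tumor was below every sgCon tumor, where this held for 2.13% of all genes, and in none was every sgTaz tumor higher, where this held for 2.44%.

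Exon length went with these values. Length is that of the merged exons of all annotated transcripts of a gene, which can exceed that of the mRNA counted. Nuclear members are short, with a median of 1587 bases of merged exons, where the median of all genes tested was 4210, and short genes as a whole had lower log2 fold changes than long ones. Protein-coding genes of at most 1000 bases had a median log2 fold change of -0.19 (267 genes), and the 19 nuclear members of this length had -0.19 as well. From 1000 to 2000 bases the medians were -0.13 over 1402 protein-coding genes and -0.16 over 31 members, and from 2000 to 4000 bases -0.045 over 4089 genes and -0.049 over 19 members. Above 4000 bases, the median of protein-coding genes was 0.010 up to 8000 bases and 0.070 beyond, and that of the members was -0.046 over 9 genes and 0.062 for Ndufs1, the single longest. Across the 79 members, Spearman's rho between exon length and log2 fold change was 0.418, beside 0.221 over all genes, a description over genes that share the same 10 libraries.

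When each tumor was corrected for GC content and exon length, the median of the nuclear members was -0.0028, with 39 positive and 40 negative values, beside -0.032 over all genes. This correction left short protein-coding genes above longer ones, at a median of 0.18 over the 267 of up to 1000 bases. The medians of the longer classes were between -0.057 and -0.02. Among the 553 tested genes of all types of up to 1000 bases, 50 were immunoglobulin segments. A correction fitted to protein-coding genes with little weight on outlying ones was added after seeing the data. It left medians between -0.028 and -0.020 in all length classes of protein-coding genes. Such even medians follow from the fit to these same genes and are no check of it. With this outlier-resistant correction, the median of the nuclear members was -0.034, beside -0.026 over all genes. Of the 79 values, 52 were negative (65.8%, where 54.3% of all genes were). At an unadjusted p below 0.05, 10 members were then lower (12.3% of all genes) and 3 higher (8.50% of all genes). Whether length or something that goes with it in these genes bears on the negative values was not tested.

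**Figure D3:**
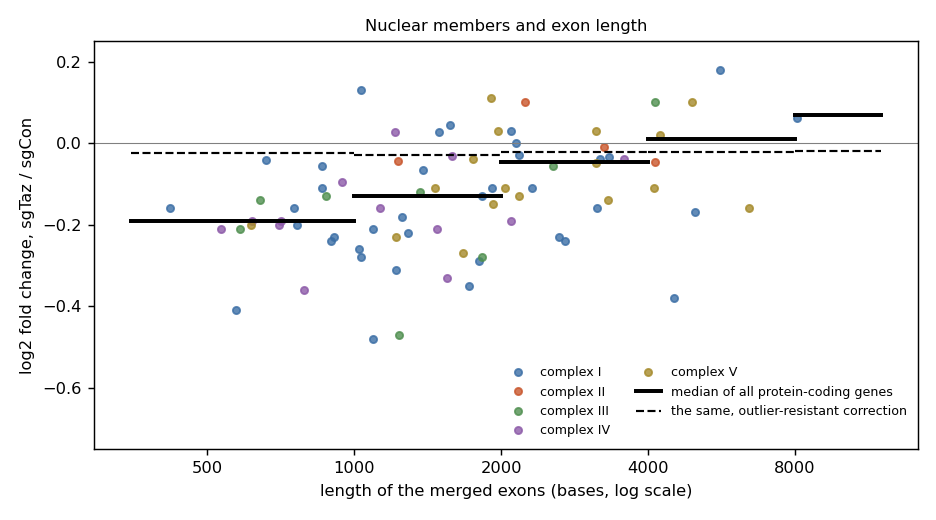
Log2 fold change (sgTaz over sgCon) against the length of the merged exons (log scale) for the 79 nuclear members tested, coloured by complex. Black lines give the median of all protein-coding genes in each length class, -0.19 for the shortest and 0.070 for the longest. Dashed lines give the same with the outlier-resistant correction, close to 0 throughout since it was fitted to these genes.

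In 9 of the 79 nuclear members (11.4%), a lower level at an unadjusted p below 0.05 was found both without any correction and with the outlier-resistant one, a share near the 9.91% of all genes for which this held. They were Ndufa2, Ndufa6, Ndufb5, Ndufb7, Ndufs4 and Ndufs7 of complex I, Uqcrh and Uqcrq of complex III, and Cox4i1 of complex IV. Atp5g2, the member with the smallest unadjusted p, was not among them. Ndufb5 and Ndufb7 had merged exons of 4995 and 4522 bases and were thus corrected as long genes, whatever the length of their mRNA.

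**Figure D4:**
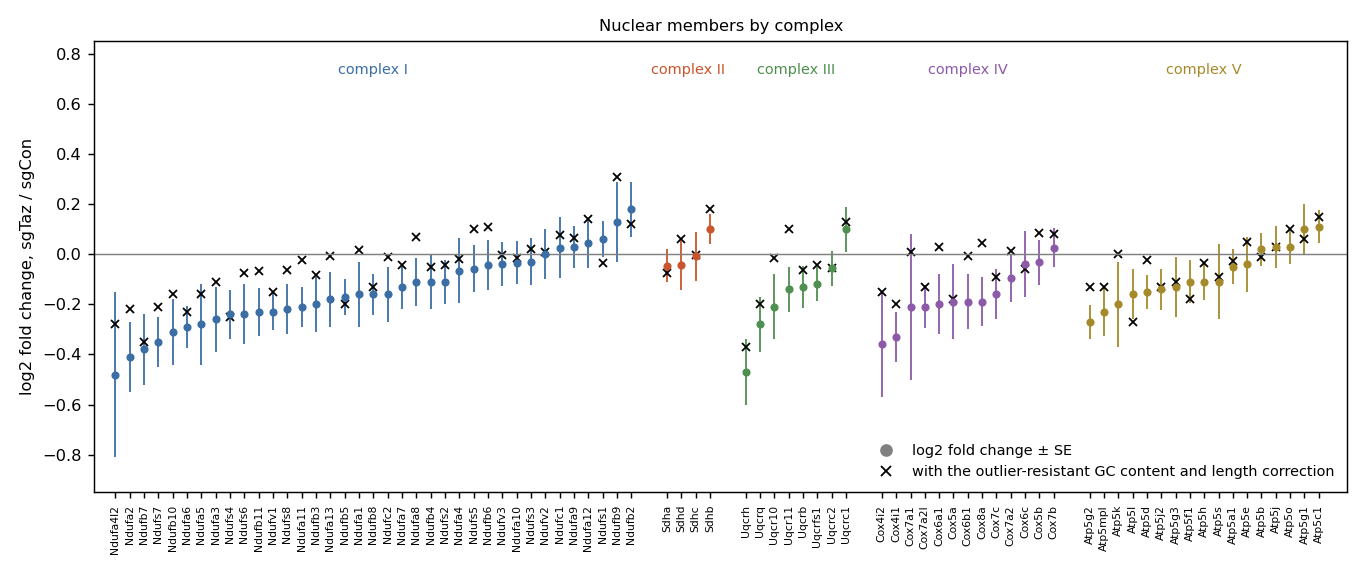
Log2 fold change of each nuclear member tested (circles, ± SE of the edgeR fit to 5 against 5 tumors), sorted within its complex, and the same with the outlier-resistant correction for GC content and length (crosses). Most circles lie below 0, and the crosses lie higher than the circles for 68 of the 79.

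Complex I, which takes electrons from NADH, had the most members. Of its 37 nuclear genes, 31 were negative, with a median of -0.16 (-0.042 with the outlier-resistant correction), and 10 had lower levels with an unadjusted p below 0.05 (27.0%, where 11.9% of all genes were lower). With the outlier-resistant correction, 6 were lower (16.2%, where 12.3% of all genes were). The count was 5 without sgCon tumor 4 (13.5%, where 12.6% of all genes were), with a median of -0.076, and 5 or 6 without sgTaz tumor 3, 4 or 5 (where between 8.46% and 11.6% of all genes were). It was 15 without sgTaz tumor 1 (40.5%, where 10.2% of all genes were) and 3 without the 3 tumors richest in lymph node stroma markers (8.11%, where 7.43% of all genes were). The 10 were the accessory membrane-arm genes Ndufb5, Ndufb7, Ndufb10, Ndufb11 and Ndufa11, the accessory genes Ndufa2, Ndufa6 and Ndufs4, and 2 core genes, Ndufs7, which binds the last iron-sulfur cluster of the chain, and Ndufv1, which binds NADH and the flavin. With the correction by GC content and length, which left short genes above longer ones, Ndufa2, Ndufb11 and Ndufa11 were positive, at 0.15, 0.050 and 0.016.

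Ndufa6, an accessory subunit, had the smallest unadjusted p of complex I among the lower members (0.00528). It was at 55.0, 55.0, 59.9, 63.3 and 47.5 CPM in the sgCon tumors and at 49.8, 44.6, 43.7, 45.5 and 45.6 CPM in the sgTaz tumors. Only sgTaz tumor 1 reached above the lowest sgCon tumor, number 5. This gave a log2 fold change of -0.29 (SE 0.085, adjusted p = 0.109 by edgeR's quasi-likelihood test), and of -0.23 with the outlier-resistant correction.

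Ndufb7 was at 63.4, 65.0, 72.1, 101 and 70.7 CPM in the sgCon tumors and at 63.3, 65.7, 51.3, 49.6 and 56.2 CPM in the sgTaz tumors. sgCon tumor 4 stood far above the others, and sgTaz tumors 1 and 2 were level with the lower sgCon tumors. Ndufb7 had a log2 fold change of -0.38 (SE 0.14, adjusted p = 0.154 by edgeR's quasi-likelihood test), and it was -0.24 without sgCon tumor 4. With the outlier-resistant correction it was -0.35, but that correction took its length as 4522 bases, the merged exons of all annotated transcripts. These fill most of the gene on chromosome 8 (83566671 to 83571626), and the mRNA counted may be shorter. Ndufa2 was at 82.8 ± 13.4 CPM (SD, n = 5) in sgCon and 62.3 ± 10.6 CPM (SD, n = 5) in sgTaz tumors, a log2 fold change of -0.41 (-0.22 with the outlier-resistant correction), and its 572 bases of exon share 66 with Tmco6 on the other strand, whose reads cannot be told apart where strand was not used.

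On the other side, Ndufb2 had the largest positive value. It was at 27.7, 30.3, 28.1, 31.2 and 26.9 CPM in the sgCon tumors and at 39.3, 26.7, 32.7, 29.4 and 34.7 CPM in the sgTaz tumors. The lowest of all 10 tumors was an sgTaz tumor, number 2, although 3 of the others stood above all sgCon tumors. Its log2 fold change was 0.18 (SE 0.11, adjusted p = 0.361 by edgeR's quasi-likelihood test). Ndufb9 was at 0.13 (SE 0.16) and, with the outlier-resistant correction, at 0.31 with an unadjusted p of 0.0428, above Ndufb2 at 0.12. Without sgTaz tumor 1 alone, Ndufb2 was at 0.10 and Ndufb9 at 0.010. Of the exon of Ndufb9, 201 of 1031 bases are shared with Gm49356 on the same strand. Ndufb9 was also the nuclear complex I gene with the highest level per length, 181 CPM per kilobase, while Ndufa4l2 was the lowest, at 5.09.

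Ndufa4l2 is the relative of Ndufa4 that hypoxia is known to induce, and it spread widely. It was at 4.20, 6.91, 2.87, 8.38 and 10.1 CPM in the sgCon tumors and at 2.93, 6.20, 3.70, 5.50 and 4.95 CPM in the sgTaz tumors. The lowest and the 3 highest values were all sgCon tumors. Although its log2 fold change of -0.48 was the largest of the nuclear members in size, the SE was 0.33 and the adjusted p 0.418 by edgeR's quasi-likelihood test, and it was -0.27 without sgCon tumor 5. Ndufa4, which is now counted with complex IV and is placed in complex I here by its symbol, was at 110 ± 17.8 CPM (SD, n = 5) in sgCon and 105 ± 18.8 CPM (SD, n = 5) in sgTaz tumors, with a log2 fold change of -0.065.

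Complex II, succinate dehydrogenase, is the one complex with no mitochondrial gene, and it also belongs to the tricarboxylic acid cycle. Its 4 genes had a median of -0.026, close to that of all genes, and none had an unadjusted p below 0.05. The median was 0.067 without sgCon tumor 4. Sdhb, the iron-sulfur subunit, was at 74.3, 75.2, 77.7, 76.9 and 69.8 CPM in the sgCon tumors and at 82.0, 75.3, 78.3, 81.3 and 83.8 CPM in the sgTaz tumors. All sgTaz tumors but tumor 2 stood above every sgCon tumor. On the log2 scale the fold change was 0.10 (SE 0.060, adjusted p = 0.358 by edgeR's quasi-likelihood test) and, with the outlier-resistant correction, 0.18 with an unadjusted p of 0.0138. Sdha, the flavin subunit, was at 156 ± 9.45 CPM (SD, n = 5) and 152 ± 9.01 CPM (SD, n = 5), a log2 fold change of -0.046, and Sdhd, the membrane anchor with the highest level per length (106 CPM per kilobase, against 34.6 for Sdhb), was at -0.043.

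Complex III hands electrons from ubiquinol to cytochrome c. Of its 8 nuclear genes, 7 were negative, with a median of -0.14 (-0.048 with the outlier-resistant correction and -0.092 without sgCon tumor 4). Uqcrh, the hinge subunit that helps cytochrome c to bind, was at 139, 165, 202, 243 and 175 CPM in the sgCon tumors and at 136, 144, 129, 129 and 128 CPM in the sgTaz tumors. Only sgTaz tumor 2 reached above the lowest sgCon tumor, number 1, and the sgCon tumors spread over a much wider range. The log2 fold change was -0.47 (SE 0.13, unadjusted p = 0.00344, adjusted p = 0.101 by edgeR's quasi-likelihood test) and -0.37 with the outlier-resistant correction. It was the most abundant nuclear member of the complex per length, at 129 CPM per kilobase. Uqcrq was the least, at 38.9, over 1831 bases of merged exons, which can be longer than the mRNA counted. Uqcrq, a small ubiquinone-binding subunit, had a log2 fold change of -0.28 (SE 0.11). Uqcrc1, a core subunit, was the one positive gene, at 165 ± 8.65 CPM (SD, n = 5) and 177 ± 23.3 CPM (SD, n = 5), with a log2 fold change of 0.10 (SE 0.090) that was 0.033 without sgTaz tumor 1.

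Complex IV, cytochrome c oxidase, reduces oxygen. Of its 16 nuclear genes, 13 were tested, 12 of these were negative, and the median was -0.19 (-0.0059 with the outlier-resistant correction). Without sgCon tumor 4 the median was -0.11. Cox4i1, the largest nuclear subunit, was at 349.6, 333, 369, 472 and 375 CPM in the sgCon tumors and at 326, 332, 294, 272 and 289 CPM in the sgTaz tumors. Every sgTaz tumor was below every sgCon tumor, by a narrow margin between sgCon tumor 2 and sgTaz tumor 2. Its log2 fold change was -0.33 (SE 0.10, adjusted p = 0.119 by edgeR's quasi-likelihood test) and -0.20 with the outlier-resistant correction, and 154 of its 1550 bases of exon are shared with Emc8 on the other strand. Cox7a2l, a relative of Cox7a2, was at 259 ± 25.8 CPM (SD, n = 5) in sgCon and 224 ± 18.5 CPM (SD, n = 5) in sgTaz tumors, a log2 fold change of -0.21 (SE 0.086), and Cox7b, the one positive gene, was at 0.027.

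Several complex IV subunits have isoforms that mark a tissue or low oxygen, and in these tumors the general forms dominated. Cox4i2, the form of lung and of low oxygen, averaged 2.62 CPM over the 10 tumors, where Cox4i1 averaged 341. It was at 2.22, 3.25, 2.31, 4.05 and 2.88 CPM in the sgCon tumors and at 2.48, 2.39, 2.30, 2.02 and 2.26 CPM in the sgTaz tumors, a log2 fold change of -0.36 (SE 0.21, adjusted p = 0.327 by edgeR's quasi-likelihood test) that was -0.22 without sgCon tumor 4. The heart and muscle forms were close to 0, with means per kilobase of 1.01 CPM for Cox6a2, 1.29 for Cox7a1 and 0.225 for Cox8b, beside 178 for Cox6a1, 102 for Cox7a2 and 337 for Cox8a. Cox6b2, the testis form, was at 0.547, beside 208 for Cox6b1. Cox6a2, Cox6b2 and Cox8b fell below the filter. Skeletal muscle markers, 5 of the 6 tested negative with a median log2 fold change of -0.68, summed to 34.6, 46.1, 87.8, 37.3 and 46.1 CPM in the sgCon tumors and to 24.2, 73.4, 18.4, 16.3 and 30.5 CPM in the sgTaz tumors. The most abundant was Tnni2, a fast troponin I, at 20.6 and 14.3 CPM, and Myh2 had at most 3 counts in any tumor. Cox6a2 was highest, at 1.93 CPM, in sgCon tumor 3, where the summed muscle markers were highest too, but next in sgTaz tumor 5, and it was at 0.452 CPM in sgTaz tumor 2, the second in muscle markers. sgCon tumor 3 and sgTaz tumor 5 were also the richest in lymph node stroma markers, at 819 and 398 CPM. Of the 680 bases of exon of Cox6a2, 70 are shared with Itgad on the other strand. The part of muscle, lymph node tissue or shared reads in these isoforms was not tested. The general forms Cox6a1, Cox6b1, Cox7a2 and Cox8a had log2 fold changes of -0.20, -0.19, -0.095 and -0.19, of -0.12, -0.075, -0.044 and -0.12 without sgCon tumor 4, and of 0.029, -0.0059, 0.015 and 0.046 with the outlier-resistant correction.

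Complex V had 12 negative values among its 17 nuclear genes and a median of -0.11 (-0.028 with the outlier-resistant correction). Without sgCon tumor 4 this median was -0.054. Atp5g2, one of several genes for the rotating c ring, had the smallest unadjusted p of all members (0.00214). It was at 136, 128, 144, 147 and 126 CPM in the sgCon tumors and at 121, 106, 117, 114 and 107 CPM in the sgTaz tumors, without overlap. The log2 fold change was -0.27 (SE 0.068, adjusted p = 0.096 by edgeR's quasi-likelihood test), and it was -0.13 with the outlier-resistant correction, with an unadjusted p of 0.0774. Atp5g2 was the one member with an adjusted p below 0.1, where 3.29% of all genes were below it. The other c ring genes, Atp5g1 and Atp5g3, were at 0.10 and -0.13. Without sgCon tumor 4 they were at 0.18 and -0.056, and without sgTaz tumor 1 at 0.035 and -0.22.

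Atp5d, the delta subunit of the central stalk, was at 149, 148, 157, 178 and 149 CPM in the sgCon tumors and at 139, 146, 139, 136 and 145 CPM in the sgTaz tumors. The groups did not overlap, but the gap between them was small, and the log2 fold change of -0.15 (SE 0.067, adjusted p = 0.220 by edgeR's quasi-likelihood test) became -0.023 with the outlier-resistant correction. Atp5c1, the gamma subunit that turns inside the catalytic head, was at 229, 233, 224, 237 and 207 CPM in the sgCon tumors and at 238, 231, 254, 262 and 229.6 CPM in the sgTaz tumors. All but 2 of the sgTaz tumors stood above every sgCon tumor, and the log2 fold change was 0.11 (SE 0.065, adjusted p = 0.363). Atp5b, the catalytic beta subunit, was the most abundant nuclear member of complex V per length (197 CPM per kilobase), at 829 ± 40.1 CPM (SD, n = 5) and 841 ± 38.4 CPM (SD, n = 5) with a log2 fold change of 0.020, while Atp5s, a coupling factor, was the least (3.07).

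**Figure D5:**
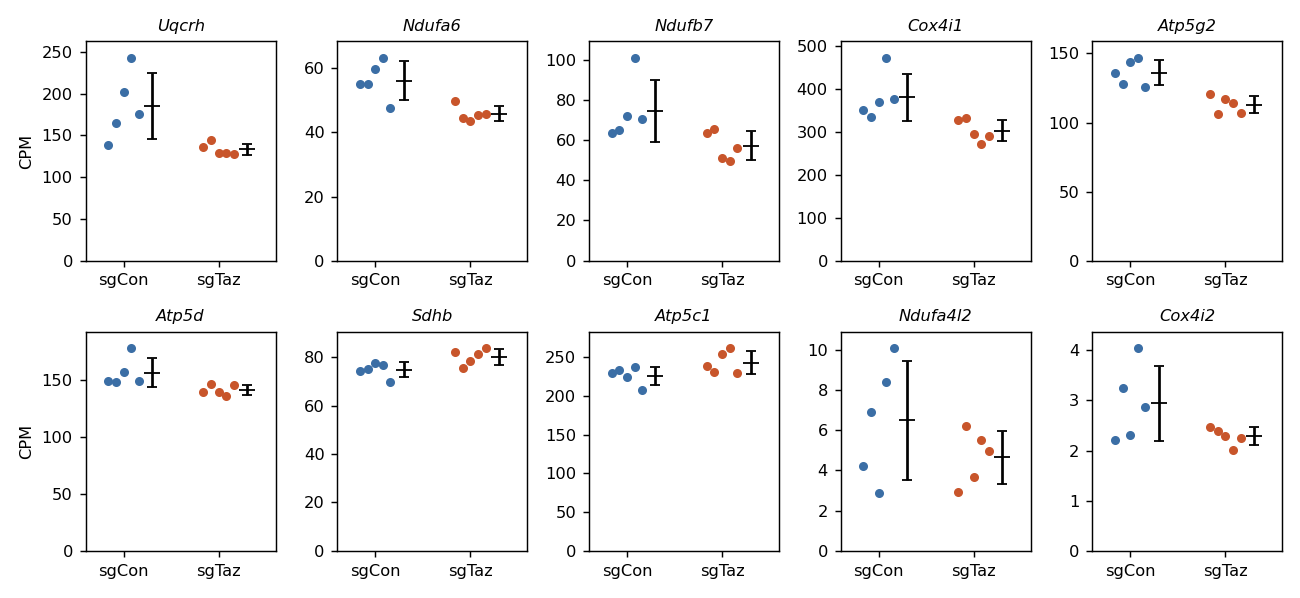
TMM-normalized CPM of 10 nuclear members in each sgCon and sgTaz tumor (points), with the mean ± SD of 5 tumors, each panel on its own axis from 0. Cox4i1, Atp5g2 and Atp5d do not overlap between groups, Sdhb and Atp5c1 overlap with a higher mean in sgTaz tumors, and Ndufa4l2 and Cox4i2 spread most in sgCon tumors.

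Among the nuclear members, 1 tumor was the highest for most genes. sgCon tumor 4 was the highest of all 10 for 50 of the 79 genes, sgTaz tumor 1 for 13 and sgCon tumor 3 for 7. sgCon tumor 4 was not high in mitochondrial members, while sgCon tumor 3 and sgTaz tumor 1 were. Atp5b was highest in sgCon tumor 1, at 896 CPM, and at 798 CPM in sgCon tumor 4. Relative to the mean of the 10 tumors, the median log2 CPM of the nuclear members was -0.048, 0.018, 0.087, 0.28 and -0.041 in the sgCon tumors and 0.11, -0.050, -0.13, -0.12 and -0.13 in the sgTaz tumors. The group ranges overlapped, with sgTaz tumor 1 above every sgCon tumor except number 4. Without sgCon tumor 4, the median log2 fold change of the nuclear members was -0.074, and 8 of 80 in place of 17 of 79 were lower at an unadjusted p below 0.05 (where 12.6% of all genes were). Without sgTaz tumor 1, the median was -0.18, and 25 of 80 were lower (31.2%, where 10.2% of all genes were). Without sgCon tumor 3 or sgTaz tumor 3, 4 or 5, between 8 and 10 were lower, where between 8.46% and 11.6% of all genes were. Without the 3 tumors richest in lymph node stroma markers the median was -0.15, and 7 were lower (8.86%, where 7.43% of all genes were).

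Markers of other cell types are given beside these levels, and no marker of the lists in this paragraph had an adjusted p below 0.05 by edgeR's quasi-likelihood test. All 11 epithelial markers were negative, with a median log2 fold change of -0.49, and 5 had an unadjusted p below 0.05. They summed to 5340, 2875, 2266, 3318 and 3536 CPM in the sgCon tumors and to 1681, 4182, 2189, 2136 and 2297 CPM in the sgTaz tumors, with Krt8, a simple keratin, as the most abundant at 928 and 711 CPM. All 10 macrophage markers were positive, with a median of 0.46 and 5 below an unadjusted p of 0.05, and summed to 1222, 1814, 1442, 2009 and 883 CPM in the sgCon tumors and to 2092, 1667, 2190, 2287 and 2235 CPM in the sgTaz tumors, with C1qa, a complement gene, as the most abundant at 394 and 492 CPM. No marker of either list was absent from all tumors. The summed levels of both lists overlapped between the groups. All 9 T cell markers were negative, with a median of -1.61 and 8 below an unadjusted p of 0.05, and summed to 227, 240, 934, 143 and 451 CPM in the sgCon tumors and to 151, 108, 122, 108 and 282 CPM in the sgTaz tumors, with Cd8a as the most abundant. All 9 tested markers of neutrophils and PMN-MDSCs (granulocytic suppressor cells) were negative, with a median of -0.96 and 4 below an unadjusted p of 0.05, and summed to 1080, 1215, 378, 518 and 964 CPM in the sgCon tumors and to 219, 646, 559.9, 534 and 679 CPM in the sgTaz tumors, with Mmp9 as the most abundant. All 9 tested markers of white adipocytes were positive, with a median of 1.29 and 1 below an unadjusted p of 0.05. Fibroblast and endothelial markers had medians of 0.086 and 0.10, with 2 of 10 and 1 of 8 higher at an unadjusted p below 0.05. Proliferation markers had a median of 0.22, with 3 of 11 higher at this p. Of the 7 markers of brown adipocytes, a cell type rich in mitochondria, only Dio2, a deiodinase, was tested, at 42.3 CPM in sgCon and 91.7 CPM in sgTaz tumors with an unadjusted p of 0.0363, while Ucp1, the uncoupling protein that defines the cell type, was at most at 0.268 CPM in any tumor. sgCon tumor 4, the highest in nuclear members, was neither the highest nor the lowest of its group in epithelial markers and was the highest of its group in macrophage markers. The part of these cell types in the levels of the respiratory chain was not tested.

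Genes that assemble, feed or regulate the chain were taken from lists. Of 134 genes in 9 lists (subunits and carriers that the symbol rule leaves out, assembly factors of each complex, mitochondrial DNA maintenance and RNA, regulators of biogenesis, the tricarboxylic acid cycle and coenzyme Q synthesis), 125 were tested. None had an adjusted p below 0.05 by edgeR's quasi-likelihood test, and at an unadjusted p below 0.05, 5 were higher (4.00%, where 9.86% of all genes were) and 13 lower (10.4%, where 11.9% of all genes were). With each tumor left out, between 8 and 16 were lower, where between 8.46% and 13.4% of all genes were. Between 3 and 8 were then higher, where between 6.88% and 11.1% of all genes were. Without the 3 tumors richest in lymph node stroma markers, 4 were lower and 2 higher (7.43% and 5.67% of all genes). With the replicate number as a block, 8 were lower and 1 higher (9.44% and 7.18% of all genes). The median log2 fold change over the lists was -0.029, beside -0.019 over all genes.

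Among the subunits and carriers outside the rule, 1 of 6 was lower at an unadjusted p below 0.05, where 11.9% of all genes were. This was Higd1a, a hypoxia-induced protein of the inner membrane that binds complex IV. It was at 57.6 ± 4.98 CPM (SD, n = 5) in sgCon and 38.3 ± 6.64 CPM (SD, n = 5) in sgTaz tumors, with every sgTaz tumor below every sgCon tumor. The log2 fold change was -0.59 (SE 0.12, adjusted p = 0.0824 by edgeR's quasi-likelihood test) and -0.60 with the outlier-resistant correction. Cycs, the gene of cytochrome c, was at 0.046, and Usmg5, a small subunit of complex V, at -0.21.

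Among the assembly factors, those of complex I had 2 of 17 lower at an unadjusted p below 0.05, where 11.9% of all genes were. These were Dmac1 (-0.22) and Ndufaf8 (-0.29). They were at -0.070 and -0.074 with the outlier-resistant correction, no longer below this p, and at 0.15 and 0.066 with the GC content and length correction. Ndufaf7 (0.17) and Ndufaf1 (0.11) had the smallest p among the positive ones. Those of complexes II and III had 1 of 10 higher, Bcs1l (0.29), which inserts the Rieske protein into complex III (9.86% of all genes were higher). The 2 lower ones, where 11.9% of all genes were lower, were Sdhaf1 (-0.65), needed for the iron-sulfur subunit of complex II, and Uqcc3 (-0.49). Uqcc3 was at -0.31 with the outlier-resistant correction, no longer below this p, and at -0.17 with the GC content and length correction. Ttc19 was at 0.12. Those of complex IV had 1 of 21 higher, Coa5 (0.18), where 9.86% of all genes were. In that list, 4 of 21 were lower, where 11.9% of all genes were. They include Cox14 at -0.39 (SE 0.087, adjusted p = 0.0896 by edgeR's quasi-likelihood test) and Pet100 at -0.43 (SE 0.15, adjusted p = 0.153). With the outlier-resistant correction Coa5 was at 0.13, no longer below this p. The list then had 0 higher and 3 lower (8.50% and 12.3% of all genes). Cox14, which helps the translation and early assembly of the mt-Co1 product, did not overlap between the groups, at 41.8 ± 4.69 CPM (SD, n = 5) and 32.0 ± 1.03 CPM (SD, n = 5), and was at -0.18 with the outlier-resistant correction and at 0.038 with that by GC content and length. Sco1, a copper chaperone, was at 0.25. None of the 5 factors of complex V had an unadjusted p below 0.05, where 9.86% of all genes were higher and 11.9% lower. Atpaf1 was at 0.18, Tmem70 at 0.013, Fmc1 at -0.11 and Tmem242 at -0.034.

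In the list of mitochondrial DNA maintenance, transcription and RNA processing, 1 of 26 was higher and 2 lower at an unadjusted p below 0.05. Of all genes, 9.86% were higher and 11.9% lower. With the outlier-resistant correction, 0 of the list were higher and 2 lower. Lrpprc, which stabilizes mitochondrial messenger RNA, was at 66.8 ± 3.81 CPM (SD, n = 5) in sgCon and 76.0 ± 2.91 CPM (SD, n = 5) in sgTaz tumors without overlap, a log2 fold change of 0.19 (SE 0.064) that was 0.10 with the outlier-resistant correction. Tfam, which packs mitochondrial DNA and starts its transcription, was at -0.20 (SE 0.079), Polg, the catalytic subunit of the mitochondrial DNA polymerase, at -0.23 (SE 0.082), and Tfb2m, a transcription factor of the organelle, at 0.20 (SE 0.091). Adjusted p was 0.143 for Lrpprc, 0.178 for Tfam, 0.150 for Polg and 0.234 for Tfb2m by edgeR's quasi-likelihood test.

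Of the regulators of biogenesis, 9 of 13 were tested. Among these, 1 was lower at an unadjusted p below 0.05, where 11.9% of all genes were, and none was higher. The lower one was Esrra, an orphan nuclear receptor that drives respiratory genes with PGC-1 coactivators. It was at 57.3 ± 6.91 CPM (SD, n = 5) in sgCon and 45.0 ± 6.98 CPM (SD, n = 5) in sgTaz tumors, a log2 fold change of -0.35 (SE 0.12, adjusted p = 0.138 by edgeR's quasi-likelihood test). Nrf1, the factor whose letters were looked for in the promoters, was at -0.21 (SE 0.10), Gabpa at 0.17 (SE 0.092) and Ppargc1b, a coactivator, at 0.38 (SE 0.30). In the tricarboxylic acid cycle, 12 of 18 genes were positive, with a median of 0.082. At an unadjusted p below 0.05, 2 of 18 were higher, a share near the 9.86% of all genes. They were Suclg2 (0.26, SE 0.087), a subunit of succinyl-CoA ligase, and Dlat (0.18, SE 0.075), the acetyltransferase of pyruvate dehydrogenase. Dlst was at -0.061 and Pdhb at -0.054. In coenzyme Q synthesis, Coq8b (-0.28, SE 0.099) was the one of 13 with an unadjusted p below 0.05, where 11.9% of all genes were lower. Coq10b (-0.22), Coq5 (0.12) and Pdss1 (0.12) were the others with the smallest p in each direction.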

How the data were processed

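Whole 4T1 tumors were sequenced on an Illumina HiSeq 2000, 5 sgCon and 5 sgTaz. Per the labels and the study's methods, the authors mapped reads with STAR to GRCm38 (mm10) with GENCODE annotation and counted reads per gene with featureCounts of Subread, and deposited whole-number counts without normalization. Tool versions, the strand setting and the handling of reads that fit several places are not given in the sources used here. The table's 5 further columns were not used. At this depth, 3 counts were between 1.53e-05% and 2.46e-05% of a tumor's counts, which covers counting error only.

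Rows were matched to GENCODE M21 (17860 of 17864). Counts were fitted in R 4.3.3 with edgeR 4.0.16 on the whole table (TMM, filterByExpr, which left 14816 genes, quasi-likelihood fit and test with glmQLFit and glmQLFTest, adjusted by Benjamini-Hochberg, threshold 0.05). The log2 CPM used a prior count of 2, and CPM per kilobase was CPM divided by the length of the merged exons. Exons of all annotated transcripts of a gene were merged, so that this length can exceed that of its mRNA. Ranks per length and the length corrections therefore depend on the annotation. Alternatives were DESeq2 1.42.0, limma 3.58.1 (voom, with weights for sample quality), scaling by RLE or by upper quartiles, normalization without mitochondrial genes, no filter, at least 10 counts in every tumor, each tumor left out, the replicate number as a block, and offsets for GC content and exon length from splines with 5 degrees of freedom, also together with the block. Added after seeing the data were GC content or length alone, an outlier-resistant fit of these offsets (MASS 7.3.60.0.1), the mitochondrial members without a copy, and 3 tumors left out together. Copies were searched among GENCODE M21 transcripts with BLAST 2.17.0+. Promoter sequences are from RefSeq (GRCm38.p6). Scripts were tested on simulated data.

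Members and lists were chosen with earlier results of these data known. Named are all mitochondrial members, the members with the smallest p in each direction in each complex, the 4 largest changes in each direction, isoform pairs, the highest and lowest level per length in each complex, up to 2 genes per list and direction by p, and Wwtr1. Members named otherwise (Ndufa11, Atp5d, Atp5g1, Atp5g3, Ndufs1 and those listed by a count) were chosen after their values were seen.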

Additional observations from a re-analysis of the deposited data

Results flagged for a closer look

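In 3 of 102 groups of 5 tumors examined, 1 tumor stood apart from the other 4 by Dixon's criterion, where chance gives about 5.1. The log2 CPM of mt-Nd5 was 11.11 in sgCon tumor 3 and between 9.81 and 10.18 in the other sgCon tumors. The log2 CPM of Ndufb7 was 6.66 in sgCon tumor 4 and between 5.99 and 6.17 in the other sgCon tumors. The log2 CPM of Cox8a was 7.88 in sgTaz tumor 1 and between 7.50 and 7.57 in the other sgTaz tumors.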

How the results depend on the processing

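No member had an adjusted p below 0.05 under any alternative of edgeR, where at most 42 of all genes were higher and 130 lower (without sgTaz tumor 5). DESeq2 called 2 and limma-voom 7, an adjusted p below 0.1 gave 1, and an unadjusted p below 0.05 gave 17. The median log2 fold change of the nuclear members, -0.13, was -0.0028 with the GC content and length correction, -0.0040 with this and the replicate block, and -0.0086 with length alone. It was between -0.18 and -0.074 with each tumor left out, was -0.034 with the outlier-resistant correction, and there and under the other alternatives moved by less than the spread between tumors (0.12). The median of the mitochondrial members, -0.024, was between -0.17 and 0.087 with each tumor left out and 0.33 without the 3 lymph node tumors. These moves were less than the spread of 0.42, but without the 3 tumors all 12 tested members were positive, in place of 6. The difference in the share of mitochondrial counts moved by less than the spread between tumors with all genes of the mitochondrial genome, with the nuclear copies added, with each tumor left out and without the 3 lymph node tumors. Each spread given here is that of single tumors, which is wider than the error of a difference between groups of 5. A move within it is therefore not shown to be small. Of 39 tested genes (the named members and Wwtr1), none changed sign under another scaling and 21 did under some alternative. The deviations of same-numbered tumors correlated at -0.15, -0.243, -0.049, 0.0932 and 0.221. Tumors with different numbers were not compared, so that these values cannot exclude a pairing by number. With the numbers as a replicate block 0 members were called by edgeR's quasi-likelihood test, the nuclear median was -0.13 and the mitochondrial median -0.029. Then 9 in place of 17 nuclear members were lower at an unadjusted p below 0.05 (11.4%, where 9.44% of all genes were).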
